A study of Arabidopsis thaliana with 6 samples.

Results

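The genes of the small (40S) subunit of the cytosolic ribosome were examined in roots of wild-type (Col) and spy-3 Arabidopsis seedlings. A list of 60 loci for 40S proteins was compared with the probe annotation, and 35 of them had a probe set annotated to that gene alone. These 35 are the members measured here, out of 13355 loci with such a probe set. Another 12 loci appear only on 6 probe sets shared with other genes, and 13 are not analysed here. The list follows protein identity and uses no measured value, although it was drawn up with earlier results of these data known. Each member had 1 probe set, so that no choice between probe sets was needed. The 35 loci encode 19 different ribosomal proteins, and 12 of these proteins are represented by 2 or more paralogs. The probe annotation and the RefSeq gene table give these loci no protein name, so the protein of each locus is stated from the established nomenclature of Arabidopsis ribosomal proteins.

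The 40S subunit binds the mRNA and pairs codons with transfer RNAs, while the 60S subunit joins the amino acids. Its head and body enclose the channel through which the mRNA passes, and its platform holds the mRNA where it leaves. In Arabidopsis nearly every ribosomal protein is encoded by a small family of paralogs, and dividing cells of the root tip are known for their high demand for ribosomes. Mutants in single 40S genes of Arabidopsis are known for narrow, pointed leaves and slow root growth.

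RNA came from whole roots of seedlings 7 d old, grown on a nylon mesh over MS medium, with 3 arrays for wild type and 3 for spy-3. The spy-3 mutant carries an allele of SPY, a glycosyltransferase that represses gibberellin signalling, in the same Col ecotype as the control. Roots were not dissected, so a transcript change in one tissue and a change in the share of that tissue cannot be told apart. SPY itself, at 258.2, 251.7 and 292.3 in wild type and 244.9, 316.7 and 294.4 in spy-3, overlapped between genotypes, and since spy-3 need not lower its own transcript this does not check the labels. The arrays had been scaled to 1 mean, their median signals lay between 85.4 and 87.2, and the Pearson r between arrays, over all probe sets, was 0.958 to 0.966 within a genotype and 0.952 to 0.963 between genotypes. The green-tissue gene RCA fell by 0.57 on the log2 scale (limma, adjusted p = 0.0027), and the root hair genes EXPA7 and EXPA18 fell by 0.44 and 0.29 (limma, adjusted p = 0.00274 and 0.018). These are the 3 called among 5 measured genes of the root hair and green-tissue lists, and none of 14 meristem or 7 root identity genes had a probe set of its own. The part of such tissue differences in the values below was not tested.

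The 40S genes as a group differed little between spy-3 and wild type. The median log2 fold change of the 35 members was 0.01, against 0.02 for all 22746 probe sets and 0.01 for the brightest 10% of them. Only AT3G57490, a gene for ribosomal protein S2, passed an adjusted p of 0.05 in limma, and it was higher in spy-3. No member was lower. The called member is 2.86% of the 35, where 5.77% of all probe sets were called, 2.64% as higher and 3.13% as lower. In the brightest 10% of probe sets, which held 32 of the members, 11.8% were called and 5.36% were called higher. At an unadjusted p of 0.05 in limma, 3 members were higher and none was lower, and 19.2% of all probe sets passed that threshold, 9.85% as higher. Among the 2275 probe sets of the brightest 10%, 694 passed it, 352 as higher. No member reached a change of 1.5-fold with an adjusted p of 0.01, a threshold that 1.24% of all probe sets passed. The arrays of the genotypes did not overlap for 4 members, or 11.4%, of which 3 were above wild type and 1 was below. Over all probe sets this share was 24.2% (12.7% above and 11.5% below), and in the brightest 10% it was 35.5%.

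The intervals of the estimates show which sizes of signal change the spread between these arrays leaves possible. They do not cover compression of strong signals by the scanner or the scaling of each array to the same mean. The standard errors of the members' log2 fold changes were 0.04 to 0.12 with a median of 0.05, against a median of 0.14 over all probe sets. The 95% intervals from limma, which are not adjusted for the number of genes, all lay within a change of 1.5-fold in either direction. The lowest limit of any interval was 0.81-fold and the highest was 1.37-fold. Of the 35 estimates, 21 were above 0 and 14 were below, from -0.08 to 0.24.

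**Figure D1:**
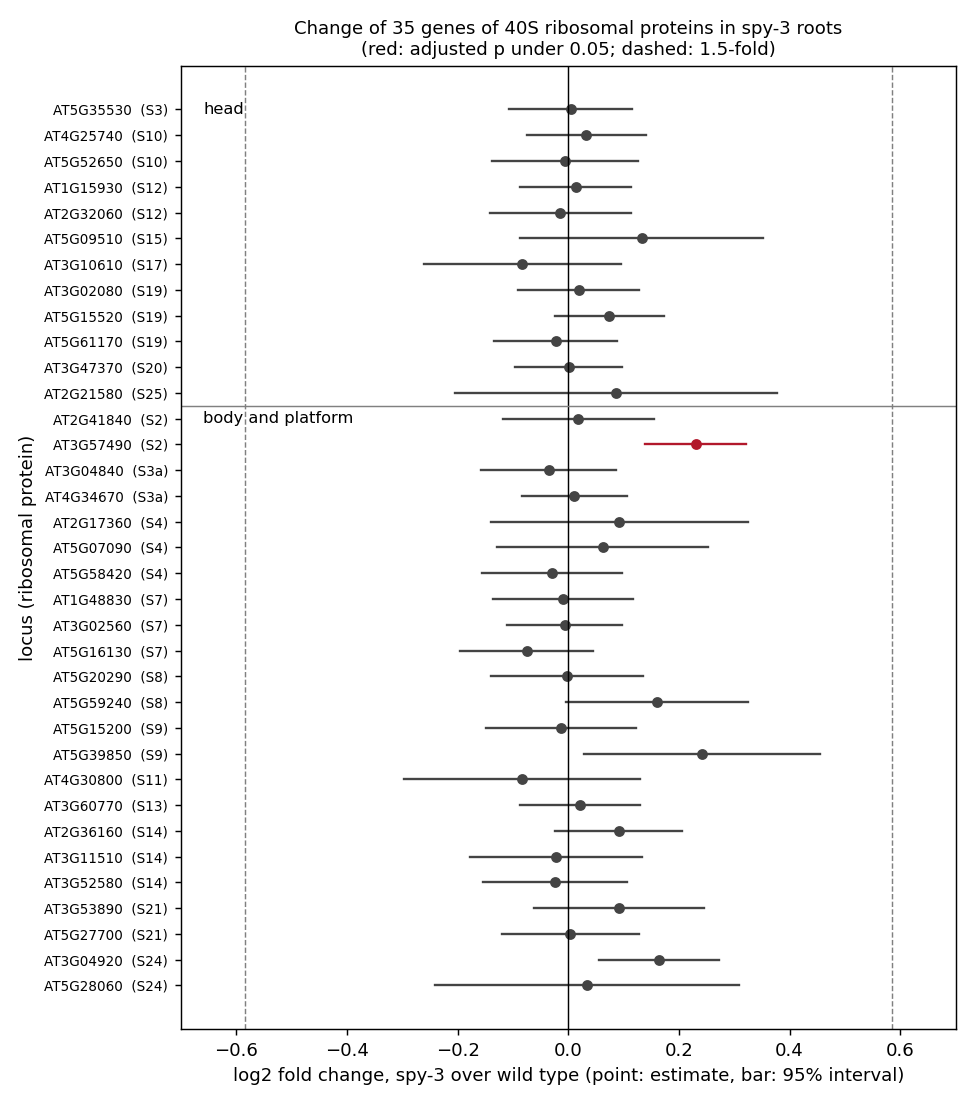
Log2 fold change of spy-3 over wild type (horizontal axis) for the 35 genes of 40S proteins (vertical axis, locus and protein), with points for the estimates and bars for their 95% intervals from limma. Only AT3G57490 (S2, red) passed an adjusted p of 0.05, and every bar lies inside the dashed lines at 1.5-fold.

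Of the 23 members that encode proteins of the body and platform, AT3G57490 was called and 22 were not. That is 4.35% of the 23, where 5.77% of all probe sets were called. Ribosomal protein S2 lies at the entry of the mRNA channel. The signals of AT3G57490 were 752.1, 732.1 and 715.5 in wild type and 832.1, 872.8 and 875.4 in spy-3. All 3 spy-3 arrays were above all 3 wild-type arrays. The mean of wild type was 733.2 ± 18.3 and that of spy-3 was 860.1 ± 24.3 (SD, n = 3 each), so that expression rose by 0.23 on the log2 scale (standard error 0.04, 95% interval 0.14 to 0.32, limma, adjusted p = 0.0211). The call was lost without any 1 of the wild-type arrays or without spy-3 replicate 2 or 3 (limma, adjusted p = 0.0596 to 0.0911), while the log2 fold change then stayed between 0.21 and 0.25. It was also lost in limma without the variance trend (adjusted p = 0.122), in the one-way analysis of variance that the methods name (adjusted p = 0.0559) and in limma with the replicate number as a block (adjusted p = 0.0959). The paralog AT2G41840 had signals of 5276, 5418 and 5319 in wild type and 5820, 5181 and 5239 in spy-3, which overlap. Its log2 fold change was 0.02 (limma, adjusted p = 0.908).

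Ribosomal protein S9, like S2, lines the mRNA entry of the body. The largest estimate of any member was that of AT5G39850, an S9 gene, with signals of 286.5, 293.2 and 242.7 in wild type and 348.6, 309.0 and 312.9 in spy-3. The genotypes did not overlap, although the gap was smaller than the range within wild type. The log2 fold change of 0.24 did not pass (standard error 0.09, limma, adjusted p = 0.205), and it was 0.16 without wild type replicate 3, the lowest array. Its paralog AT5G15200 had signals of 7779, 8243 and 8710 in wild type and 8138, 8266 and 8073 in spy-3 (log2 fold change -0.01, limma, adjusted p = 0.935). The 3 spy-3 values of AT5G15200 lay inside the wild-type range.

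Ribosomal protein S8 is a protein of the body. The S8 gene AT5G59240 had signals of 326.6, 320.7 and 363.3 in wild type and 357.2, 371.1 and 401.3 in spy-3, with overlap between wild type replicate 3 and spy-3 replicate 1. Its log2 fold change of 0.16 did not pass (limma, adjusted p = 0.269). The other S8 gene, AT5G20290, had the highest mean signal of all members, at 8585 ± 515 in wild type and 8565 ± 52.4 in spy-3 (SD, n = 3 each). Its log2 fold change was -0.00166, with an interval of -0.14 to 0.14.

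Ribosomal protein S24 is a body protein and is needed in human cells to trim the precursor of the 18S rRNA. AT3G04920, an S24 gene, had signals of 1992, 1941 and 1868 in wild type and 2217, 2212 and 2069 in spy-3, without overlap. The log2 fold change of 0.16 (standard error 0.04) had an unadjusted interval of 0.06 to 0.27 but did not pass over all probe sets (limma, adjusted p = 0.104). The paralog AT5G28060 was among the most variable members, with 2184, 2130 and 1675 in wild type and 2225, 1953 and 1926 in spy-3. Its log2 fold change was 0.03 (adjusted p = 0.916), and -0.09 without wild type replicate 3, the lowest array.

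The S14 proteins form the part of the platform beside the exit of the mRNA, and S3a lies next to them. The S14 gene AT2G36160 had signals of 4196, 4396 and 4090 in wild type and 4628, 4545 and 4335 in spy-3, or a log2 fold change of 0.09 (limma, adjusted p = 0.371). Only wild type replicate 2 reached into the spy-3 range. The other S14 genes, AT3G11510 and AT3G52580, had log2 fold changes of -0.02 each (limma, adjusted p = 0.902 and 0.869). Both S3a genes also had estimates near 0, at -0.04 for AT3G04840 and 0.01 for AT4G34670.

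The largest decreases among the members were small and did not pass. The S11 gene AT4G30800 had signals of 812.5, 754.2 and 649.1 in wild type and 670.8, 738.1 and 674.3 in spy-3, so that the highest and the lowest of the 6 values were both wild type. Its log2 fold change was -0.08 (limma, adjusted p = 0.678) and -0.17 without wild type replicate 3. The S7 gene AT5G16130 was the only member with all spy-3 arrays below wild type, at 4902, 4954 and 5084 against 4836, 4466 and 4894. The difference between the closest arrays was less than the spread within either genotype, and the log2 fold change of -0.07 did not pass (limma, adjusted p = 0.495). S7 binds the side of the platform and takes part in subunit assembly, and the 2 other S7 genes, AT1G48830 and AT3G02560, had log2 fold changes of -0.00881 and -0.00656.

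The remaining members of the body and platform overlapped between the genotypes. The 3 genes of S4, a body protein, had log2 fold changes of 0.09 (AT2G17360), 0.06 (AT5G07090) and -0.03 (AT5G58420). For the first 2 of these, wild type replicate 3 was the lowest and spy-3 replicate 1 the highest array. The S13 gene AT3G60770 had a log2 fold change of 0.02, and the S21 genes AT3G53890 and AT5G27700 had 0.09 and 0.00409. AT5G27700 was among the members of highest signal, at 7177 ± 344 in wild type and 7192 ± 98.7 in spy-3 (SD, n = 3 each).

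None of the 12 members that encode head proteins was called, where 5.77% of all probe sets were called. None was without overlap between the genotypes, where 24.2% of all probe sets were. Whether head genes differ from those of the body and platform was not tested. The median log2 fold change of the 12 head members was 0.00901, with estimates from -0.08 to 0.13. The S15 gene AT5G09510, whose protein lies near the decoding site, had the largest estimate, from signals of 1041, 940.3 and 832.1 in wild type and 1107, 973.5 and 995.1 in spy-3 (log2 fold change 0.13, limma, adjusted p = 0.51). Its wild-type arrays spread over most of the combined range. The S17 gene AT3G10610 had the lowest estimate, from 2103, 2021 and 1757 in wild type and 1802, 1930 and 1807 in spy-3 (log2 fold change -0.08, limma, adjusted p = 0.617). Without wild type replicate 3 this estimate was -0.16.

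S19, a head protein whose loss in humans impairs maturation of the 18S rRNA, was represented by 3 genes. AT5G15520 had signals of 928.5, 898.0 and 896.5 in wild type and 916.2, 959.7 and 992.5 in spy-3, so that 2 of the 3 spy-3 arrays were above every wild-type array (log2 fold change 0.07, limma, adjusted p = 0.398). AT3G02080 and AT5G61170 had log2 fold changes of 0.02 and -0.02. The S12 gene AT1G15930, at 6251, 6427 and 6426 in wild type and 6436, 6301 and 6550 in spy-3, also had 2 of 3 spy-3 arrays above the wild-type range, by small margins. Its log2 fold change was 0.01, with an interval of -0.09 to 0.11.

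The other head members were as close. The second S12 gene AT2G32060 had a log2 fold change of -0.01, and the S10 genes AT4G25740 and AT5G52650 had 0.03 and -0.00634. AT5G35530 encodes S3, a protein of the mRNA entry, and had a log2 fold change of 0.00434. The S20 gene AT3G47370 had the estimate closest to 0, at 0.000693 with an interval of -0.10 to 0.10. AT2G21580 encodes S25, which in yeast and mammals is needed for initiation at some internal ribosome entry sites. It had the largest standard error of the members (0.12), with 984.7, 1003 and 1273 in wild type and 1275, 1143 and 1033 in spy-3, and a log2 fold change of 0.09 (limma, adjusted p = 0.763).

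**Figure D2:**
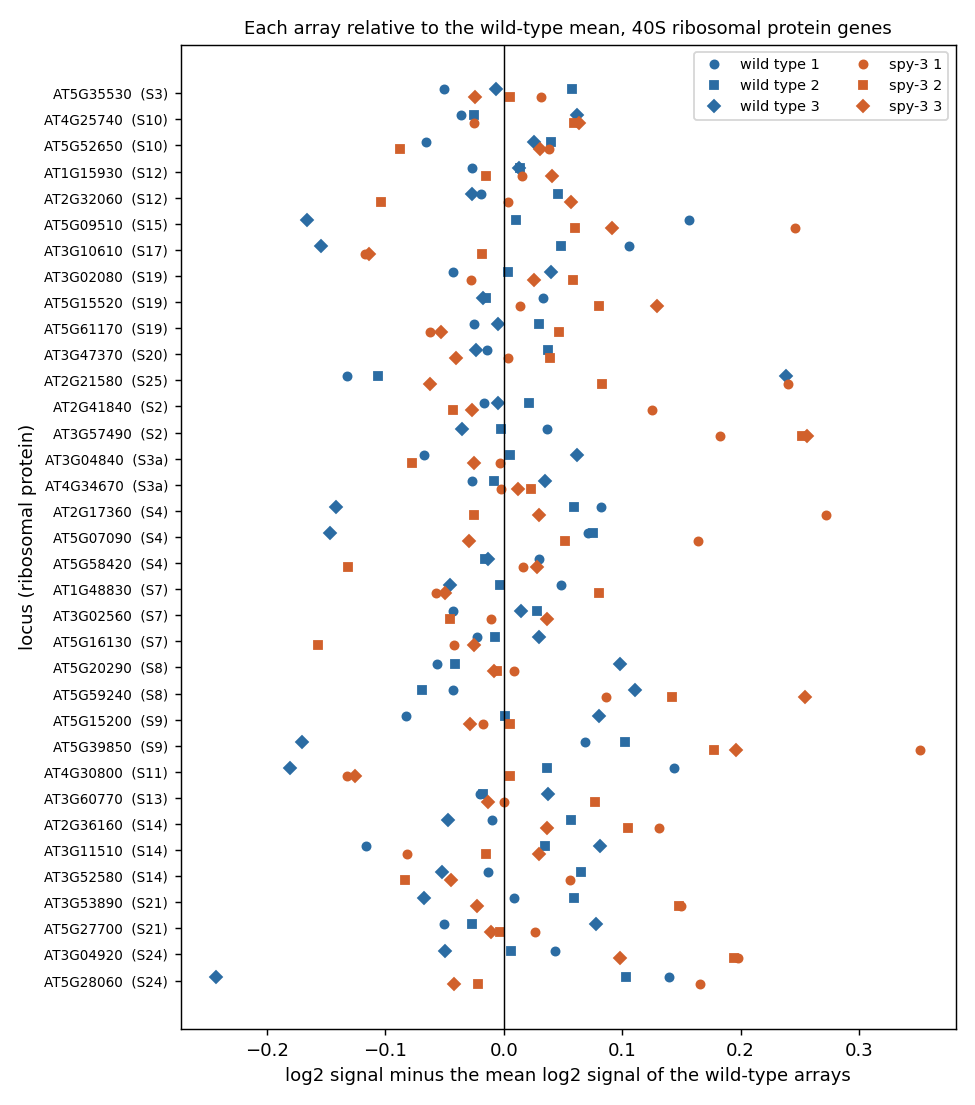
Log2 signal of each array minus the mean of the wild-type arrays (horizontal axis) for the 35 members (vertical axis), with blue symbols for the 3 wild-type arrays and orange symbols for the 3 spy-3 arrays. AT3G57490 (S2), AT5G39850 (S9) and AT3G04920 (S24) have all orange symbols to the right of the blue ones, and wild type replicate 3 (blue diamonds) lies far to the left for several genes, AT5G28060 (S24) and AT4G30800 (S11) among them.

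On each array, the mean log2 signal over the 35 members was 11.43, 11.45 and 11.42 in wild type and 11.49, 11.46 and 11.45 in spy-3. Every spy-3 array was above every wild-type array, but wild type replicate 2 and spy-3 replicate 3 both rounded to 11.45, and the distance between them was smaller than the spread within either genotype. The median deviation from the wild-type mean of each gene was 0.02, 0.01 and -0.01 on the log2 scale in the spy-3 arrays. Of the 35 members, 12 had their lowest value on wild type replicate 3 and 11 on wild type replicate 1, while 10 had their highest on spy-3 replicate 1. In the other direction, 7 had their highest value on wild type replicate 3 and 8 their lowest on spy-3 replicate 2.

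Paralogs of the same protein were compared by the log2 ratio of their signals on each array, in 20 pairs. A ratio of signals does not give a ratio of transcript amounts, because each probe set has its own brightness. A change of the ratio between genotypes shows an unequal change of both signals. Since scanners compress strong signals, it need not show an unequal change of both transcripts, and this was not tested. In 14 pairs the gene of lower signal had the higher log2 fold change in spy-3, and in 6 pairs the reverse held, with a median difference of 0.06. The genotypes did not overlap in 4 of the 20 pairs. Over all probe sets, which are single signals and not ratios, the share without overlap was 24.2%. These 4 pairs had the smallest p that an exact two-sided permutation test of 3 arrays against 3 can give (0.1, or 0.5 adjusted over the 20 pairs). No pair could have passed 0.05 in this design, so the test does not show whether any pair differs, and the differences are given with their standard errors.

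The largest differences were those of S9, S2 and S8, in each of which the gene of lower signal moved up relative to its paralog. For S9, the log2 ratio of AT5G39850 to AT5G15200 was -4.76, -4.81 and -5.17 in wild type and -4.55, -4.74 and -4.69 in spy-3, a difference of 0.26 (standard error 0.14). The S2 ratio of AT3G57490 to AT2G41840 differed by 0.21 (standard error 0.08), with -2.81, -2.89 and -2.89 in wild type and -2.81, -2.57 and -2.58 in spy-3. Here spy-3 replicate 1 almost met the highest wild-type array. The S8 ratio of AT5G59240 to AT5G20290 was -4.66, -4.70 and -4.66 in wild type and -4.59, -4.52 and -4.41 in spy-3, a difference of 0.16 (standard error 0.06). All 3 spy-3 arrays lay above the wild-type range in these pairs.

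In the fourth pair without overlap, the S14 genes AT3G52580 and AT2G36160, the ratio fell by 0.11 in spy-3 (standard error 0.04). The ratio of the S24 genes AT5G28060 and AT3G04920 also fell, from 0.04 ± 0.17 (SD, n = 3) to -0.09 ± 0.09 (SD, n = 3), with overlap. In 13 of the 20 pairs the difference was under 0.1 in either direction. The pairs of a protein with 3 genes share members and are not independent.

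**Figure D3:**
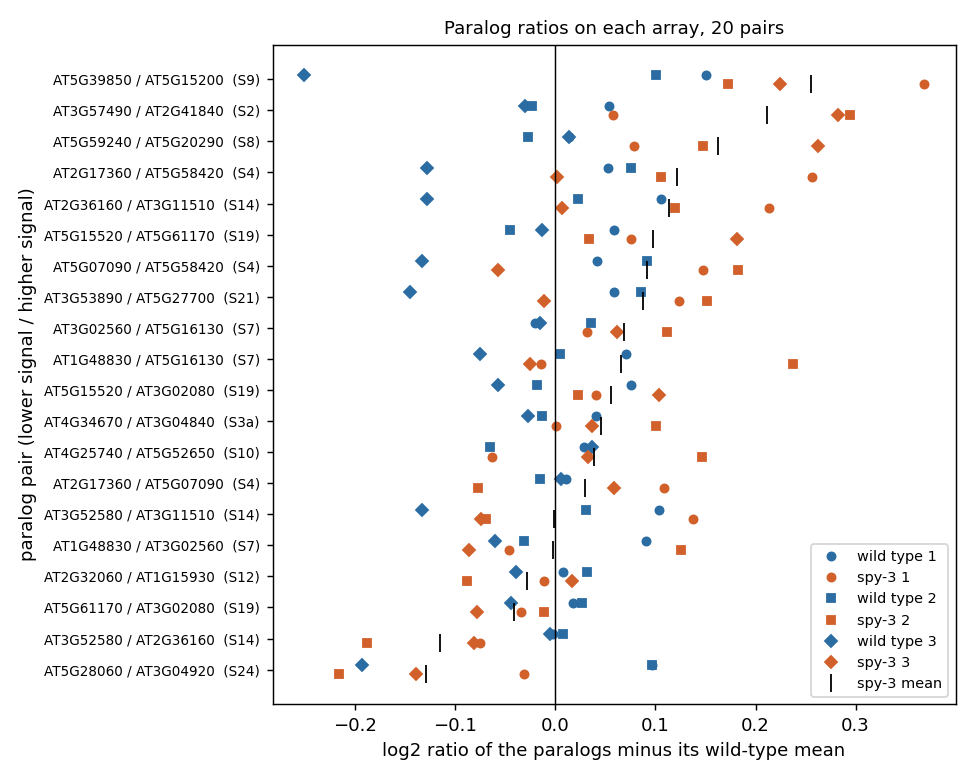
Log2 ratio of the signals of paralogs on each array minus its mean over the wild-type arrays (horizontal axis) for 20 pairs (vertical axis, gene of lower signal first), in blue for wild type and orange for spy-3, with a black bar at the spy-3 mean. The pairs of S9, S2 and S8 at the top have all 3 spy-3 arrays to the right of wild type, with mean differences of 0.26, 0.21 and 0.16.

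Among the members, the estimates of genes with lower signals lay higher than those of genes with higher signals. The 6 members with a mean signal under 1024 had a median log2 fold change of 0.15, and 5 of the 6 estimates were above 0. The other 29 had a median of 0.00409, with 16 above 0 and 13 below. This split was chosen after the values were seen and is given without a test. Across the 35 genes, which share the same 6 arrays and are not independent, the log2 mean signal and the log2 fold change had a Pearson r of -0.62 and a Spearman rho of -0.42. Without the 6 genes of lowest signal, r was -0.39 over 29 genes. Without wild type replicate 3, r over the 35 genes was -0.36, and it was -0.72 to -0.57 when any other array was left out. Over all 5608 probe sets at or above the lowest member's signal, r was -0.01. Among 71 genes of 60S proteins in that range it was -0.45.

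**Figure D4:**
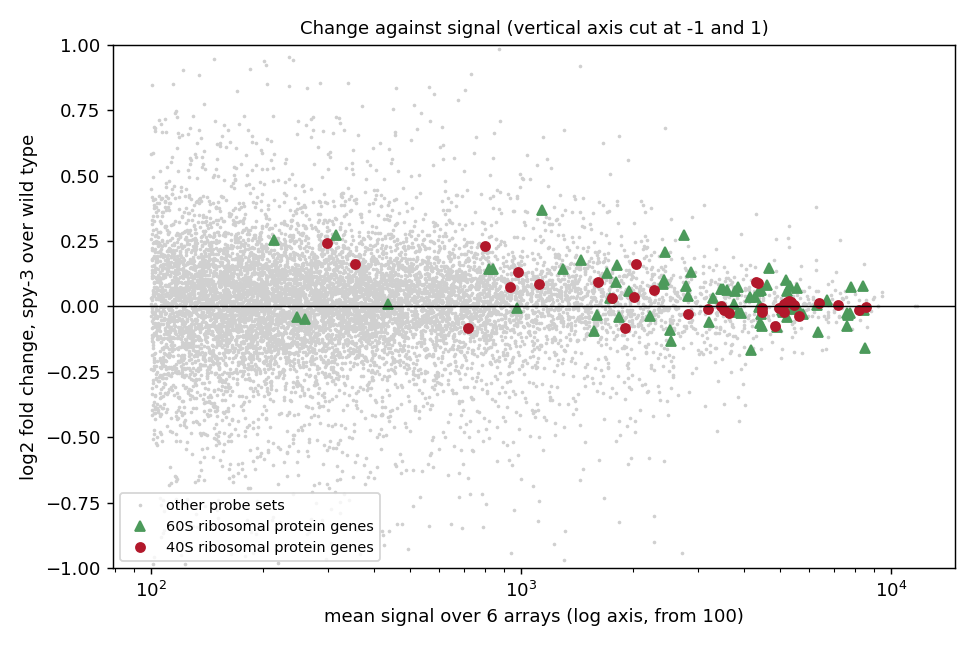
Log2 fold change of spy-3 over wild type (vertical axis, with 72 of 10792 drawn probe sets beyond the limits of -1 and 1) against the mean signal over 6 arrays (horizontal log axis, from 100), for 40S genes (red circles), 60S genes (green triangles) and other probe sets (grey). The red circles above a signal of 1024 lie close to 0 (median 0.00409), while 5 of the 6 below it are above 0.

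Few genes of the 60S subunit were called. Of 131 listed loci 83 were measured, with a median log2 fold change of 0.04, and 2 were higher, none was lower and 81 did not pass an adjusted p of 0.05 in limma. That is 2.41% of the list, below the 5.77% of all probe sets and the 11.8% of the brightest 10%. At an unadjusted p of 0.05 in limma 13 of the 83 were higher and none was lower, against 9.85% higher over all probe sets. Among the 2275 probe sets of the brightest 10%, 694 passed that threshold, 352 as higher. The genotypes did not overlap for 21.7% of the list, with 16 genes above wild type and 2 below. Of the 16, 7 were among the 17 genes with a mean signal under 1024, whose median signal was 30.4. Among the 66 genes of higher signal the share was 16.7%, with 9 above and 2 below. Overlap was read from values without the floor of 1. With it, AT3G10950 (0.2, 0.3 and 0.5 in wild type, 2.1, 1 and 12.1 in spy-3) would not count as separate. Over all probe sets the share without overlap was 24.2% (12.7% above and 11.5% below), and in the brightest 10% it was 35.5%. Whether the 60S and 40S genes differ was not tested. The largest called change was that of AT4G00810, whose mean signal was 2495 ± 110 (SD, n = 3) in Col and 3015 ± 150 (SD, n = 3) in the mutant, or 0.27 on the log2 scale (limma, adjusted p = 0.0378). AT2G32220 rose by the same amount, from 286.4 ± 10.2 (SD, n = 3) to 345.6 ± 2.2 (SD, n = 3) (limma, adjusted p = 0.0181). Both calls depended on single arrays: without any 1 array, AT4G00810 had an adjusted p of 0.0778 to 0.139, and the whole 60S list had 1 call without wild type replicate 3 and none without any other array. AT2G47570, which averaged 2.1 ± 1.4 in wild type and 11.1 ± 3.6 in spy-3 (SD, n = 3 each), did not pass (limma, adjusted p = 0.0634), and its wild-type signals, one of them under the floor of 1, lie far below the median of every array, so that no fold is given.

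None of the measured genes in 3 further lists tied to ribosomes was called. Of 31 further 40S loci outside the 60 listed, 8 were measured and none passed in limma. At an unadjusted p of 0.05 in limma 2 were higher, where 9.85% of all probe sets were higher. The median log2 fold change of the 8 was 0.05. It includes AT2G39590 and AT2G16360, whose mean signals were only 4.8 and 20.9. This median also depended on single arrays. It was -0.00590 without spy-3 replicate 1, 0.01 when wild type replicate 3 was left out, and 0.08 to 0.11 without spy-3 replicate 2 or 3 or wild type replicate 2. The values of AT2G45710 were 899.2 ± 47.2 in wild type and 1005 ± 43.8 in spy-3 (SD, n = 3 each) (adjusted p = 0.165), those of AT4G34555 were 614.4 ± 23.5 and 664.1 ± 17.2 (adjusted p = 0.219). Of 33 listed genes of ribosome biogenesis 17 were measured and none passed. At an unadjusted p of 0.05 in limma 2 of the 17 were higher, against 9.85% of all probe sets. The median log2 fold change of the 17 was 0.07. With 1 array left out it ranged from 0.04 (without spy-3 replicate 1) to 0.10 (without spy-3 replicate 3). The lowest adjusted p of that list were those of AT3G12860 (0.119), YAO (0.189) and AT3G05060 (0.30), with log2 fold changes of 0.26, 0.26 and 0.13. Of 10 listed genes of TOR signalling only 2 were measured, with mean signals of 180.8 and 48.8. These were RAPTOR1 and RAPTOR2, partners of the TOR kinase that controls synthesis of ribosomes. Their log2 fold changes were -0.04 and 0.17 (limma, adjusted p = 0.873 and 0.638). The genes of ribosomal protein S6, a target of S6 kinase downstream of TOR, are not analysed here, nor are those of S5 and S18.

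The 6 probe sets that carry 12 of the remaining 40S loci jointly with each other or with further genes had mean signals of 3938 to 8935. Their log2 fold changes were -0.04 to 0.16, and limma called none of them (lowest adjusted p 0.535), nor did any reach an unadjusted p of 0.05. They measure several genes at once and are not assigned to any 1 of them.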

How the data were processed

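Total RNA from roots of 3 wild-type and 3 spy-3 samples was labelled and hybridized to Affymetrix ATH1 arrays. For each probe set the authors deposited a linear intensity, computed by MAS5 per the labels (its version and settings: not given in the sources used here). Each array had been scaled to the same mean, so a change of total brightness cannot be seen. The methods call the replicates biological, without saying whether plates or harvests were separate, so p-values cover the spread among these samples alone. The number of arrays limits the precision, and array scanners compress strong signals.

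Values below 1 were raised to 1 before taking log2. The fit used limma 3.58.1 (R 4.3.3), whose eBayes step modelled the variance as a trend on mean signal, and p-values were adjusted by Benjamini-Hochberg over the 22746 probe sets. Paralog ratios were compared by exact permutation. Permutations and tables used scipy 1.17.1 and pandas 2.3.3 under Python 3.11.15. The fit was also run on simulated data drawn from its own variance model, without array effects. That run checks the code and not how well the model describes these arrays. Probe sets were named through the platform annotation and RefSeq genes of TAIR10.1 (13436 of 13513 single-gene probe sets matched a locus), and 503 probe sets with several genes were not named.

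Members, lists and tests were chosen with earlier results of these data known. The lists of 60S and organelle proteins were meant to come from gene descriptions, which the tables used here do not hold. The 60S list was therefore written by locus after the files were opened, and organelle ribosomes were not analysed. Genes named are the called members, the 5 of highest and of lowest signal, the pairs that differed most, the largest changes and up to 3 of lowest adjusted p in each list, and the other members were given for completeness. No sequence is shown because no sequence table was used here. Alternatives were quantile, median and cyclic loess normalization, offsets of 16 and 64, leaving out the dimmest 40% of probe sets, other variance models, a one-way analysis of variance (the test named in the methods), the methods' thresholds, the replicate number as a block, other choices of probe set and leaving out each array.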

Additional observations from a re-analysis of the deposited data

How the results depend on the processing

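The count of lower 40S members was 0 in every alternative run, and the median log2 fold change of the members moved by less than the spread between arrays (-0.00251 without wild type replicate 1 to 0.02 without wild type replicate 3). AT3G57490 kept its direction in all 16 refits and its call in 8. The number of higher members was 1 under the 3 normalizations, both offsets, with robust variances and without the dimmest 40% of probe sets. Both other choices of probe set leave the same 35 probe sets and test nothing. It was 0 in limma without the trend, by analysis of variance, with the replicate block and at a fold change of 1.5 with an adjusted p of 0.01, and it ranged from 0 to 1 over the left-out arrays. No other member was called in any refit. Of the values of single members, 549 kept their call or, uncalled, moved by less than their standard error, 8 lost the call (all of AT3G57490) and 3 moved further without wild type replicate 3, as given for AT5G28060, AT3G10610 and AT4G30800.

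Over all probe sets, 712 were lower and 600 higher, against 374 and 268 in limma without the trend, 371 and 287 by analysis of variance, 391 and 265 with the replicate block, and 182 and 99 at the fold change of 1.5. Over the left-out arrays the lower count ranged from 312 to 496 and the higher from 203 to 377. The replicate numbers are not stated to mark a shared batch, and not every pair of arrays with the same number deviated together (r of their deviations 0.18, -0.15 and 0.18), so the block stands as an alternative only. The number of paralog pairs without overlap, 4 with all arrays, was 3 with an offset of 64 and 5 after quantile normalization, and ranged from 5 to 8 over the left-out arrays, where it can only stay or rise. The number of higher 60S genes ranged from 0 to 5 over all alternatives. The relation between signal and change among the members, computed after the values were seen, had a Pearson r of -0.64 to -0.59 under the normalizations and offsets.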
